A study of Saccharomyces cerevisiae with 15 samples.

Results

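The galactose genes of budding yeast (Saccharomyces cerevisiae) described here are GAL1, GAL10, GAL7 and GAL2, which carry out the uptake and breakdown of galactose and are called structural genes below, and GAL3, GAL4 and GAL80, which regulate them. They were taken by gene name from the gene spots of 2 two-colour arrays and make up 7 of the 6256 genes on each array. On both arrays, total RNA of BY4741 from YPD was labelled with Cy3 and hybridised against Cy5-labelled genomic DNA. BY4741 is a haploid laboratory strain, and YPD is a rich medium whose sugar is glucose. The labels name the DNA source as BY4741 but tag its strain as progenitor, and they give no growth stage for the array samples, while the design text of the series speaks of mid-log RNA. The series also holds 13 sequencing libraries, not analysed here, so the data are of 1 condition and no comparison between growth conditions is made.

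Galactose enters the cell through the permease Gal2 and is turned into glucose 1-phosphate by the Leloir pathway, in which Gal1 is the galactokinase, Gal7 the transferase that exchanges the sugar between UDP-glucose and galactose 1-phosphate, and Gal10 the epimerase that regenerates UDP-glucose. Gal4 is the activator that binds upstream of these genes, Gal80 masks its activation domain, and Gal3, a close relative of Gal1 without kinase activity in this yeast, binds galactose and relieves Gal80. In glucose medium the structural genes are known to be shut off, through repressors such as Mig1 as well as through Gal80. GAL7, GAL10 and GAL1 lie side by side on 1 chromosome, and GAL10 and GAL1 are transcribed away from each other from a shared upstream region.

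Each gene was read by 1 probe printed as 7 spots, and all 49 galactose spots were kept on each array. The systematic names are YBR020W for GAL1, YBR019C for GAL10, YBR018C for GAL7, YLR081W for GAL2, YDR009W for GAL3, YPL248C for GAL4 and YML051W for GAL80. The files do not give the strand or the letters of the probes, so signal shared by the related genes GAL1 and GAL3, or by RNA from the opposite strand, was not tested. An antisense transcript over GAL10 is known in glucose-grown cells. Intensities are in arbitrary units after background subtraction. The RNA intensity of the median gene was 1135 on array 1 and 1390 on array 2, and that of the DNA 4184 and 4558. A floor for RNA was set at 3 SD of the 153 negative control spots, at 17.0 on array 1 and 32.9 on array 2, and RNA lay above it for 92.9% and 91.2% of the genes. The 4 markers of a cells in the list used were above the median gene and the 4 of alpha cells below it, and HIS3, LEU2, MET17 and URA3, which this strain lacks in whole or in part, had RNA under the floor and DNA at no more than 0.162% of the median gene's. Separate cultures are not named in the labels and both arrays were on 1 slide, so every p-value rests on an array-to-array spread that may be technical.

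RNA signal of the structural genes was weak, and none of them was at the floor. GAL1, the galactokinase, had median RNA intensities of 177 on array 1 and 235 on array 2. GAL10, the epimerase, had 50.4 and 62.3, and GAL2, the permease, 51.2 and 61.8. GAL7, the transferase, had 30.7 and 45.6, the lowest of the 7 genes on both arrays. GAL1 thus stood apart from the other structural genes in the RNA channel, with every one of its 14 spots above every spot of GAL10, GAL7 and GAL2. Its lowest spots were 142 and 167, and the highest spot of the other structural genes was 71.7, a GAL2 spot on array 2.

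The regulators split widely. GAL3, the galactose sensor, had RNA intensities of 70.7 and 67.0, and GAL4, the activator, 59.9 and 69.1, both below GAL1 and close to GAL10 and GAL2. GAL80, the inhibitor of Gal4, had 2097 on array 1 and 2494 on array 2, above the median gene on both. Among all genes, GAL80 was at percentiles 68.8 and 68.2 of RNA intensity, GAL1 at 16.3 and 16.7, and the other 5 members between 9.15 and 12.3. No spot of GAL80 overlapped any spot of the other members: its lowest was 1842, on array 1, and their highest was 282, a GAL1 spot on array 2.

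**Figure D1:**
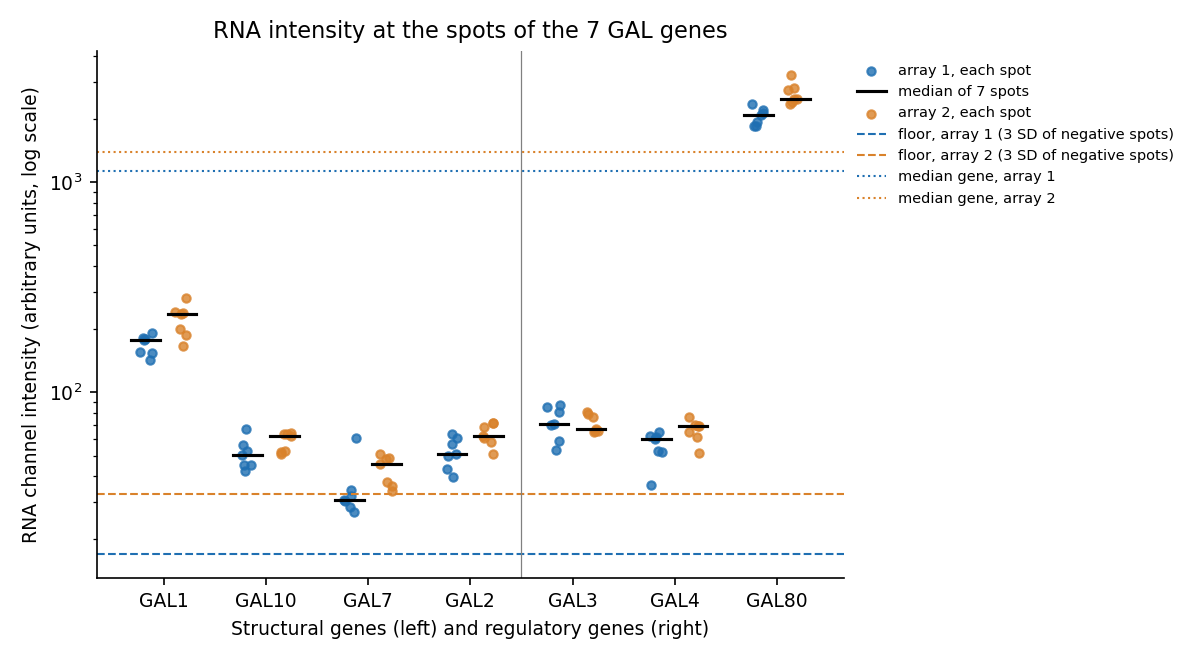
RNA channel intensity (arbitrary units, log axis) at each of the 7 spots of every galactose gene, on array 1 and array 2, with black bars for spot medians, dashed lines for the floors and dotted lines for the median gene. GAL80 sits above the median gene with spots of 1842 and more, GAL1 between 142 and 282, and the other 5 genes between 27.0 and 86.7.

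How near the weak genes came to background can be read from the negative control spots. Their medians were -4.53 on array 1 and -5.84 on array 2, and the highest single spots were 49.8 and 76.8. GAL7 came closest: its median was 1.80 times the floor on array 1 and 1.39 times on array 2, and 5 of the 153 negative spots of array 2 reached its lowest spot of 34.02. For GAL10, GAL2, GAL3 and GAL4, at most 1 negative spot on either array reached the lowest spot, and for GAL1 and GAL80 none did. All 7 spots of each of the 7 genes were marked by the extraction software as well above background in the RNA channel, on both arrays. No member was at the floor, so none of the 7 ratios below is a bound set by the floor. Of the alpha-cell markers, STE3 read 55.9 on array 1 and 65.2 on array 2, MF(ALPHA)2 32.9 and 40.4, and SAG1 340 and 423. MF(ALPHA)1 was under the floor, at 9.51 and 14.5. Signal above the floor thus also occurred at markers of alpha cells. Whether the weak signals of the galactose genes come from their transcripts was not tested.

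The question the arrays address in this series is a reference level of RNA per gene, taken as RNA over DNA at the same probe, so that differences between probes in hybridisation are partly divided out. In RNA from a whole culture, fewer cells with a transcript and less of it per cell cannot be told apart. Relative to the median gene, 6 of the 7 galactose genes were called lower and none higher, where 31.2% of all 6250 genes tested were called lower and 28.2% higher. A call needed an adjusted p under 0.05 in limma and a log2 value of at least 1 in size. The median over the 7 genes was -3.16, beside -0.0022 over all genes. Having 6 of 7 called lower is more than that background share, but the genes were picked as a known pathway and no test of the list was made.

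GAL1 was at -2.03 and -1.98 on the log2 RNA/DNA scale on the arrays, a mean of -2.00 ± 0.03 (SD, n = 2), which is 25.0% of the ratio of the median gene (limma adjusted p = 7.54e-05). GAL10 was at -3.05 and -3.04, a mean of -3.04 ± 0.003 or 12.1% of the median gene (limma adjusted p = 5.15e-05). GAL2 was at -4.05 and -3.86, a mean of -3.96 ± 0.13 or 6.45% (limma adjusted p = 7.2e-05). GAL7 was at -5.02 and -4.95, a mean of -4.99 ± 0.05 or 3.15% (limma adjusted p = 5.15e-05). The structural genes were thus all lower than the median gene on both arrays, by 4.005-fold for GAL1 and by 31.7-fold for GAL7. The span within the structural group was much wider than the difference between arrays for any of them.

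GAL3 was at -2.97 and -3.36, a mean of -3.16 ± 0.27 or 11.1% of the median gene (limma adjusted p = 0.000265). GAL4 was at -4.97 and -4.93, a mean of -4.95 ± 0.03 or 3.23% (limma adjusted p = 5.15e-05). GAL80 was at 0.65 and 0.63, a mean of 0.64 ± 0.01, or 1.55 times the median gene (limma adjusted p = 0.000501). It was not called, because the size fell short of 1 on the log2 scale. By the adjusted p alone it would be called higher, as were 47.1% of all genes under that rule. In rank, GAL80 stood at percentile 64.3 of all genes, followed by GAL1 (20.4), GAL10 (15.0), GAL3 (14.5), GAL2 (12.2), GAL4 (8.0) and GAL7 (7.87).

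**Figure D2:**
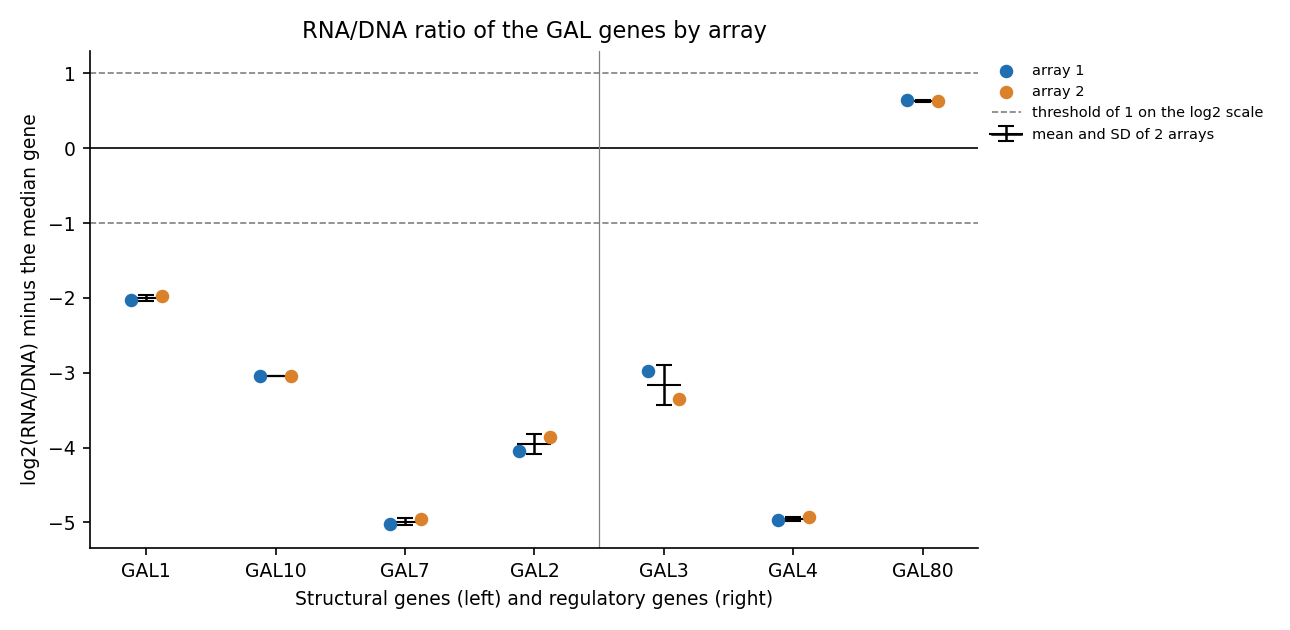
Log2 RNA/DNA relative to the median gene for each galactose gene (vertical axis), with a point per array and a black bar for the mean and SD of 2 arrays, structural genes to the left of the regulators, and dashed lines at the threshold of 1. GAL80 is the one gene above 0, and GAL7 and GAL4 are lowest, near -4.99 and -4.95.

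From high to low, the order of the mean log2 ratios was GAL80, GAL1, GAL10, GAL3, GAL2, GAL4 and GAL7. Neighbours in this order were taken as apart where the difference had 1 sign on both arrays and its mean exceeded the summed SDs of both genes. GAL80 exceeded GAL1 by 2.64 ± 0.05, GAL1 exceeded GAL10 by 1.04 ± 0.03, GAL3 exceeded GAL2 by 0.79 ± 0.40 and GAL2 exceeded GAL4 by 0.99 ± 0.11. GAL10 and GAL3 did not differ beyond their spread: GAL10 was lower by 0.07 on array 1 and higher by 0.32 on array 2. GAL4 and GAL7 did not either, with a difference of 0.04 against summed SDs of 0.07. The activator gene and the transferase gene thus shared the lowest place on this scale.

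The structural genes were then set against the regulators gene by gene, 12 pairs in all. Every structural gene was lower than GAL80 on both arrays: the log2 difference, structural minus GAL80, was -2.64 ± 0.05 for GAL1, -3.68 ± 0.02 for GAL10, -4.59 ± 0.15 for GAL2 and -5.62 ± 0.06 for GAL7. In linear terms the RNA/DNA ratio of the inhibitor gene was 6.23 times that of GAL1 and 49.3 times that of GAL7. These sizes depend on the signal used: the GAL7 difference was -4.75 without background subtraction, and on RNA alone the differences were -3.49 for GAL1, -5.35 for GAL10, -5.35 for GAL2 and -5.93 for GAL7. Against GAL4, GAL1 was higher by 2.95 ± 0.01, GAL10 by 1.91 ± 0.02 and GAL2 by 0.99 ± 0.11, while GAL7 was at -0.04 ± 0.02, within the spread. Against GAL3, its relative GAL1 was higher by 1.16 ± 0.30, GAL10 was at 0.12 ± 0.27, GAL2 was lower by 0.79 ± 0.40 and GAL7 was at -1.82 ± 0.32.

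As groups, the structural genes had a median log2 ratio of -3.55 on array 1 and -3.45 on array 2, and the regulators -2.97 and -3.36. The difference, structural minus regulatory, was -0.57 on array 1 and -0.09 on array 2. Its mean of -0.33 ± 0.34 (SD, n = 2) did not quite exceed the spread between the arrays, and this depended on the setting. The difference exceeded its SD on RNA alone (-0.315 ± 0.227), with gradient-corrected signals (-0.170 ± 0.149), quantile normalization (-0.334 ± 0.304) and the mean over spots (-0.259 ± 0.257). Without background subtraction the difference did not, at -0.159 ± 0.220. With group means in place of medians it was -1.004 ± 0.14, since a mean carries the full height of GAL80. No test of this difference was made, and the smallest two-sided permutation p that 2 arrays allow is 0.5. A single group value describes the regulators poorly, because GAL80 was above the median gene and GAL3 and GAL4 were far below it.

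The DNA channel shaped part of the order. Its intensity differed among these genes although each is read as 1 gene on the genome. GAL10 had 1540 on array 1 and 1611 on array 2, at percentiles 1.66 and 1.49 of all genes. GAL4 had 5847 and 6194, at percentiles 75.4 and 73.0. GAL3, GAL1, GAL2, GAL7 and GAL80 lay between them, with 2106, 2387, 3123, 4013 and 4659 on array 1, and 2306, 2633, 2979, 4335 and 5128 on array 2. A high DNA signal lowers the ratio and a low one raises it, and whether probe composition or another property set these signals was not tested.

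On RNA alone, centred on the median gene, the same 6 genes were called lower, against 29.9% of all genes, but their order differed. GAL80 was at 0.86 ± 0.03 and GAL1 at -2.62 ± 0.08, then came GAL3 at -4.19 ± 0.26, GAL4 at -4.29 ± 0.06, GAL2 at -4.48 ± 0.01, GAL10 at -4.49 ± 0.01 and GAL7 at -5.07 ± 0.20. GAL3 and GAL4 did not differ beyond their spread on this scale, nor did GAL2 and GAL10, and GAL3, GAL4, GAL2 and GAL10 together spanned only 0.30. GAL7 minus GAL4, within the spread on the ratio scale, was -0.78 on RNA alone and negative on both arrays. GAL10 minus GAL4 was 1.91 in the ratio, beside -0.20 in RNA and -1.93 in DNA. The ratio is a median of spot ratios, so differences of the channel medians need not add up to it. The signs of GAL10 minus GAL4, of GAL2 minus GAL4 and of GAL10 minus GAL3 turned to -0.20, -0.19 and -0.30 on RNA alone. That GAL80 exceeded every structural gene held on both scales.

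**Figure D3:**
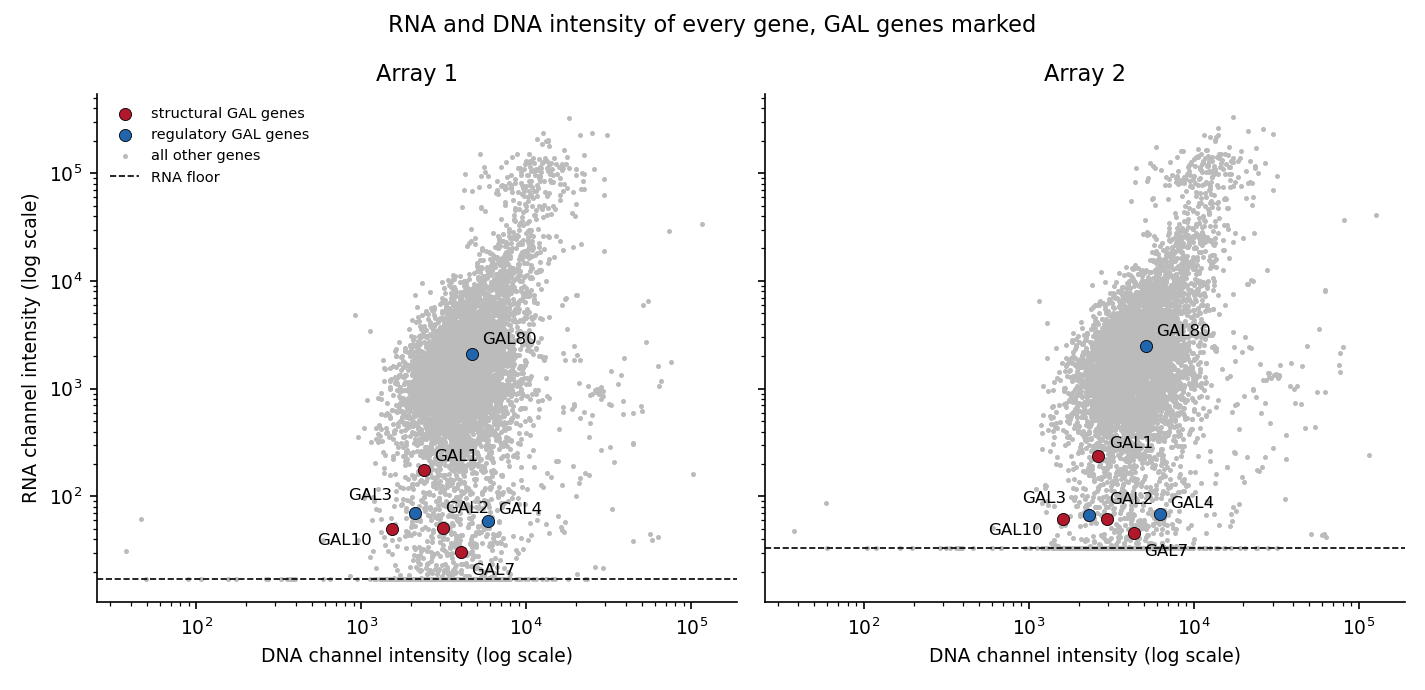
RNA intensity against DNA intensity (both log axes, arbitrary units) for every gene on array 1 and array 2, with structural galactose genes in red, regulators in blue and other genes in grey, and the RNA floor as a dashed line where lower values were set. GAL10, GAL3, GAL2 and GAL4 lie nearly level in RNA, at 50.4 to 70.7 on array 1, while their DNA runs from 1540 to 5847.

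The genes on the sides of the structural cluster lay on opposite sides of the median gene. KAP104, a nuclear import receptor gene next to GAL7, was called higher than the median gene at 1.249 ± 0.01 (limma adjusted p = 0.00013). FUR4, the uracil permease gene next to GAL1, was called lower at -2.83 ± 0.02 (limma adjusted p = 5.45e-05). Of the 10 genes next to a galactose gene that are not members, 6 were called lower and 3 higher, with a median of -1.32, where 31.2% of all genes were called lower and 28.2% higher. Next to the single genes, SUR7, beside GAL80, was at 1.13 ± 0.07, AIM32 on the other side of GAL80 at -2.63 ± 0.09, TRP1 beside GAL3 at 1.18 ± 0.08 and EMP46 beside GAL2 at -2.25 ± 0.03. GYP5 and YPL247C, on the sides of GAL4, were at -1.06 ± 0.04 and -1.59 ± 0.02, and SRL2, on the other side of GAL2, was not called at 0.08 ± 0.01. YDR010C, beside GAL3, had RNA at the floor and a ratio of at most -6.34. Genes beside a galactose gene were thus found above and below the median gene. On RNA alone, GYP5 was at 0.03 and not called, TRP1 was not called at 0.91 and SRL2 was called lower at -1.12. Without genes at the floor, TRP1 and SUR7 were at 0.98 and 0.93 and not called.

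All 4 other genes reported to be Gal4 targets were called lower, where 31.2% of all genes were. Their median was -1.68, beside -3.50 for the structural genes. At a log2 threshold of 2, 1 of the 4 (FUR4) was still called lower, where 20.4% of all genes were. FUR4 was lowest, MTH1, a regulator of glucose sensing, was at -1.77 ± 0.01, PCL10, a cyclin of the Pho85 kinase, at -1.59 ± 0.00 and GCY1, an aldo-keto reductase, at -1.28 ± 0.04. On RNA alone PCL10 was not called, at -0.73. Of 3 genes that work beside or after the Leloir pathway, 2 were called higher, where 28.2% of all genes were. UGP1, which makes UDP-glucose, was at 1.71 ± 0.10 and PGM1, a phosphoglucomutase, at 1.04 ± 0.02, while PGM2, the main phosphoglucomutase, was not called at -0.82 ± 0.10. PGM2 was called lower on RNA alone, at -1.26, and PGM1 was not called without genes at the floor, at 0.85.

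Among the 4 cofactors of Gal4, 1 was called higher and 1 lower, where 28.2% of all genes were called higher and 31.2% lower. GAL11, a Mediator subunit also known as MED15, was at 2.05 ± 0.04. TRA1, a large subunit of the SAGA and NuA4 coactivators, was not called at 0.40 ± 0.00, and SSN3, the Mediator kinase, was not called at -0.47 ± 0.03. SSN8, its cyclin, was called lower at -1.001 ± 0.02, and it fell short of the threshold under several of the other settings tried, at -0.96 without background subtraction. TRA1 was called higher on RNA alone, at 1.37. The cofactors lay on both sides of the median gene, in counts near the shares over all genes. GAL4 itself was at -4.95.

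Of 15 genes of glucose repression, 5 were called higher and 3 lower, with a median of 0.45, where 28.2% of all genes were called higher and 31.2% lower. HXK2, the hexokinase that also acts in repression, was highest at 2.83 ± 0.02 and GLC7, the catalytic subunit of the phosphatase that Reg1 directs, was at 2.54 ± 0.12, with REG1 at 1.26 ± 0.01. SNF1, the kinase that relieves repression, was at 1.88 ± 0.07, and CYC8, a corepressor, at 1.2004 ± 0.03. Its partner TUP1 was not called at 0.72 ± 0.05 and was called higher on RNA alone, at 2.13. SNF4, of the same list, was not called at 0.86 and was called higher on RNA alone, at 1.67. On that scale 7 of the 15 were called higher, beside 1805 of all 6250 genes. MIG1, the repressor that binds at GAL promoters, was not called at 0.08 ± 0.06, nor was MIG2 at -0.52 ± 0.01. NRG1 was lower at -1.60 ± 0.05, SIP2, a beta subunit of the Snf1 kinase, at -1.70 ± 0.03, and MIG3, found under its systematic name YER028C, at -1.02 ± 0.04, which was -0.98 and not called without background subtraction. GAL83, another beta subunit named for a galactose phenotype, was not called at -0.19 ± 0.15.

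Of 10 other genes known to be repressed by glucose, 9 were called lower and 1 higher, where 31.2% of all genes were called lower and 28.2% higher. The list had a median of -2.87, beside -3.50 for the structural galactose genes, and no test of the list was made. They ran from MAL12, a maltase, at -4.79 ± 0.07 to SUC2, invertase, at 1.13 ± 0.01, and MAL12 and MAL32 are near-identical copies whose signal may be shared. SUC2 was not called on RNA alone, at 0.60, or without genes at the floor, at 0.94. The gluconeogenic and glyoxylate genes PCK1 and MLS1 were at -2.87 ± 0.00 and -4.00 ± 0.02. The structural galactose genes ran from -4.99 to -2.00, and this list as a whole from -4.79 to 1.13.

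**Figure D4:**
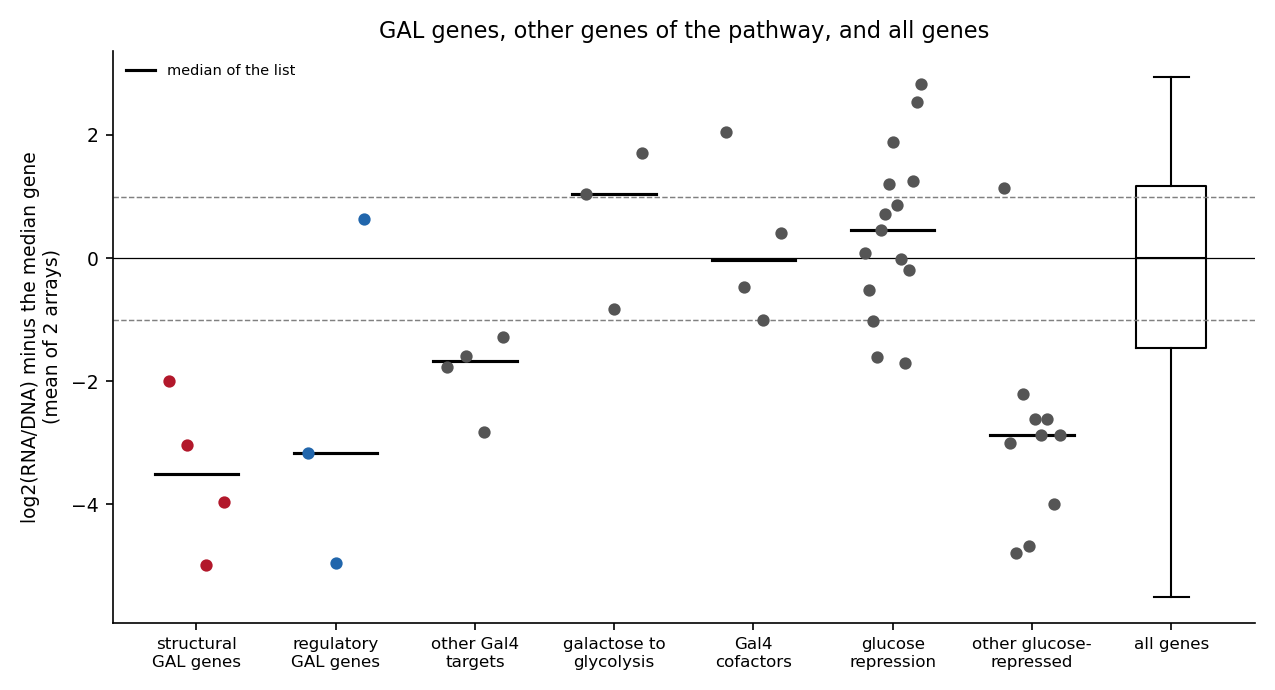
Mean log2 RNA/DNA of 2 arrays relative to the median gene (vertical axis) for structural and regulatory galactose genes and for 5 other lists, a point per gene and a bar for each list's median, with all genes on the right as a box (quartiles, whiskers from percentile 5 to 95). The medians are -3.50 for structural genes, -3.16 for regulators and -1.68 for other Gal4 targets, and GAL80 is the only galactose gene above 0.

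With 1 condition and 2 arrays no pattern across conditions can be compared, so likeness to other genes was taken only as nearness in level on the arrays, over genes measured above the floor. The closest to GAL80 was GOS1, at 0.63, with a distance of 0.0044 over both arrays. The closest to GAL10 was TIR4, at -3.04, and the closest to GAL4 was FYV5, at -4.93. For GAL1, GAL7, GAL2 and GAL3 they were YGR149W at -2.00, YHR022C at -4.98, YLR281C at -3.99 and YOR199W at -3.16.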

How the data were processed

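Per the submitters' processing notes, spot intensities in the files the authors deposited come from Agilent Feature Extraction 10.5.1.1. The intensity used is the mean spot signal minus a fitted spatial background, per the file headers; it can be negative. Gradient-corrected intensities are divided by a fitted surface, also deposited by the authors. The files record no dye normalization, and dyes were not swapped. The build was not given in the sources used here and coordinates are left out; neighbours and MIG3 were taken from RefSeq assembly R64, to whose locus tags 5756 of 6256 names matched.

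Spots needed DNA well above background, and neither channel saturated or non-uniform, on both arrays (43721 of 43792 kept). RNA under the floor was raised to it. Spot values of log2(RNA/DNA) were reduced to a median per gene and centred on the median of the 6250 genes. P-values came from limma 3.58.1 under R 4.3.3, with an intercept as the single term, moderated variances and Benjamini-Hochberg adjustment over all genes. The fit was also run on simulated data in which most genes had no shift. In the real data 5896 of 6250 genes passed the adjusted p threshold, so that run does not measure how reliable these p-values are. Python 3.11.15, numpy 2.4.6, pandas 2.3.3, scipy 1.17.1 and matplotlib 3.10.9 did the rest. The precision is limited by the number of arrays, 2.

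Members and lists were chosen with earlier results of these data known. Named were all members, all list genes where a sentence turns on them, neighbours, and the nearest gene in level. Alternatives changed signal, background, normalization, spot summary and filter, floor, low-value filter, channel, thresholds, test and arrays; 2 of them, RNA minus the median negative control and leaving out population outlier spots, were added after seeing the data.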

Additional observations from a re-analysis of the deposited data

How the results depend on the processing

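The direction of all 7 held under all 15 alternatives, but several could not have turned it. Changes of threshold or test leave the values as they are. Dropping the spot filter, or using the lower robust floor (2.07 and 1.00), reaches these genes only through the median gene. The 6 galactose genes called lower kept that call under every alternative that gives a test. These included a log2 threshold of 2, which calls 20.4% of all genes lower. At that threshold GAL1, at -2.00, passed with almost no margin: it was at -1.98 on array 2, -1.97 with RNA minus the median negative control and -1.82 without background subtraction. The number of galactose genes called higher, 0, became 1 (GAL80) by the adjusted p alone. Over all genes that rule called 2944 higher and 2952 lower, and the threshold of 2 called 774 and 1278, in place of 1760 and 1952. Over the alternatives GAL7 ran from -5.18 to -4.13, GAL4 from -5.15 to -4.29, GAL2 from -4.48 to -3.33, GAL3 from -4.19 to -2.75, GAL10 from -4.49 to -2.48, GAL1 from -2.62 to -1.82 and GAL80 from 0.44 to 0.86. Leaving out genes at the floor lowered all ratios by 0.19 through the median gene. The structural minus regulatory difference was -1.004 with group means, and -0.57 to -0.09 with 1 array left out in turn. Whether this difference exceeded its spread between arrays depended on the setting, as given above. Of the 12 structural-regulatory pairs, 8 kept their sign under all 10 signal, filter and scaling alternatives. Besides the 3 that turned on RNA alone, GAL7 minus GAL4 reached 0.20 without background subtraction. This pair also turned with RNA minus the median negative control, with GAL7 at -4.81 and GAL4 at -4.84. No paired analysis was possible because there is 1 group. GAL7 was at -4.13 without background subtraction. Its value of -4.99 with the robust floor was fixed in advance, since all its spots already lay above the main floor.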

Other observations

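The RNA signal of GAL7 was uneven among its printed spots. On array 1, 1 spot read 61.0 while the other 6 ran from 27.0 to 34.4, and the extraction software marked it as a population outlier. The spot at the same printed position was again the highest on array 2, at 51.0 against 34.02 to 48.6, and was not marked there. Leaving it out gave GAL7 a log2 ratio of -5.16 for array 1 and -4.99 for array 2, beside -5.02 and -4.95 with it. The origin of the raised spot was not tested.

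With the main signal, GAL3 had the largest SD between arrays of the 7 genes. Its SD between arrays, 0.27, was ranked among genes of all intensities and not among genes as weak as GAL3. It was larger than that of 99.5% of the 5702 genes whose RNA exceeded the floor on each array. Their median SD was 0.04. The RNA of GAL3 on array 2 was 0.949 times that on array 1, while the median of those genes was 1.22 times, and that of GAL7 was 1.49 times. Its spots on array 1 had an SD of 0.37 on the log2 ratio scale, against 0.12 on array 2, and those of GAL4 and GAL7 had 0.42 and 0.39 on array 1, against 0.20 and 0.23 on array 2. With gradient-corrected signals the SD of GAL3 between arrays was 0.14 and its mean -3.30, while GAL7 had the larger SD, 0.19.

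The DNA signal varied among the spots of a gene. GAL1 read from 1511 to 2858 over its 7 spots on array 1, and from 2307 to 2653 after the gradient correction. GAL2 read from 1776 to 3331, and from 2460 to 2665 after it.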
